A study of Rattus norvegicus with 15 samples.

Results

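Peptide growth factors and their receptors were examined in liver of male Fischer344 rats (named only as Fischer for 1 control sample). They were taken as every probe with exactly 1 gene symbol in the array's annotation that begins with the name of a fibroblast, platelet-derived, vascular endothelial, transforming or epidermal growth factor family, a bone morphogenetic protein, an activin or inhibin, a growth differentiation factor, hepatocyte growth factor, an angiopoietin or one of their receptors. The insulin-like growth factors were left out. This gave 61 probes of 60 genes, of 3400 named genes on 3757 probes. Of these, 35 probes were for ligands, 21 for receptors, and 5 for genes that share a name but are neither, namely Bmp1 (a procollagen protease), Bmp2k (a kinase), Fgfbp1 (a carrier of fibroblast growth factors), Egfl7 (a secreted endothelial protein) and Nrgn (the neuronal protein neurogranin). No probe with exactly 1 symbol was named for an angiopoietin or the receptor Tek, so these are not among the members.

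RNA came from 15 liver samples. Control liver (5 samples) was from rats kept on a basal diet for 70 weeks. Noncancerous cirrhotic liver (5 samples) was the tissue around hepatocellular carcinoma, and the carcinomas themselves were the other 5 samples, both from rats given a diet that lacks choline and supplies L-amino acids in place of protein, also for 70 weeks. No transgene or carcinogen is named for any group. The labels do not say whether a carcinoma and a noncancerous sample share a rat, and they do not state that each sample is a rat of its own, so the p-values measure only the spread between these samples. Values are given as the log2 of a ratio, with the median of that probe across the 15 arrays as its base, so each shows how a gene differs between samples and not how strongly it is expressed. The presence of liver markers could therefore not be read from these values.

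Peptide growth factors are secreted or membrane-bound ligands that act on neighbouring cells through receptor kinases. The fibroblast, platelet-derived, vascular, epidermal and hepatocyte growth factors act through receptor tyrosine kinases and the Ras and phosphoinositide kinase pathways, while the transforming growth factor beta superfamily acts through serine/threonine kinase receptors and Smad proteins. In liver, hepatocyte growth factor and ligands of the epidermal growth factor receptor drive hepatocyte division after injury. Platelet-derived growth factor and transforming growth factor beta act on stellate cells, the source of scar matrix in cirrhosis, and vascular endothelial growth factors act on sinusoidal and tumour vessels.

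More members lay above than below the other 2 tissues in noncancerous cirrhotic liver, but no member passed the test across all probes. Between noncancerous and control liver, 43 of 61 probes had a difference above 0, against 50.7% of all probes, with a median of 0.39 on the log2 scale where the median of all probes was 0.02. Between carcinoma and noncancerous liver, 43 of 61 were below 0 with a median of -0.57, where 49.3% of all probes were above 0. Between carcinoma and control liver members lay on both sides, from -1.31 to 1.34, with 26 of 61 above 0 (50.1% of all probes) and a median of -0.15. With a trend along the numbering of the probes removed, as described below, the members above and below 0 were 34 and 27 between noncancerous and control liver, 24 and 37 between carcinoma and noncancerous liver, and 24 and 37 between carcinoma and control liver. With limma's adjusted p held to 0.05, 0 members and 0% of all probes were called in each of the 3 comparisons. The comparisons share samples, so they are not independent of each other. The smallest adjusted p of a member was 0.307, 0.642 and 0.224 in noncancerous against control, carcinoma against control, and carcinoma against noncancerous liver.

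At an unadjusted p under 0.05 the members numbered 5 between noncancerous and control liver, all higher in noncancerous liver, which is 8.2% of members beside 9.64% of all probes. Among all probes 4.02% were higher and 5.62% lower at that p. A share near that of all probes is not a result about the members. Between carcinoma and control liver it was 1 member, Bmp6 (1.64%), lower in carcinoma, beside 7.4% of all probes (3.65% higher and 3.75% lower). Between carcinoma and noncancerous liver it was 15 members (24.6%), beside 13.2% of all probes. Of these, 12 were lower in carcinoma (19.7%, beside 6.28% of all probes) and 3 higher (4.92%, beside 6.95%). On the values as deposited the split was 12 lower and 1 higher. The counts depended on single samples: between noncancerous and control liver 10 members had such a p without control 5 (beside 14.1% of all probes) or without noncancerous 1 (11%), and 9 without control 3 (9.42%). Between carcinoma and control liver it was 4 without control 2 (7.59% of all probes), 0 without control 5 (6.25%), and 2 in turn without control 1, 3 or 4, noncancerous 1 or 3, or carcinoma 1 or 2 (6.28% to 8.22%).

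The place of a probe in the array's numbering moved with these differences. Of the 61 members, 38 (62.3%) lay among the first 1300 probes of the table, where 34.6% of all probes lie. In that stretch probes of every kind tended to be higher in noncancerous liver. For each member, the median difference of the other probes within 50 places on either side was taken. The median of these neighbour values was 0.43 between noncancerous and control liver and -0.39 between carcinoma and noncancerous liver, beside the members' own medians of 0.39 and -0.57. After a running median of the probe and the 50 on either side of it was removed from each array, the members' median difference was 0.10, -0.12 and -0.33 in the 3 comparisons. The counts at an unadjusted p under 0.05 were then 5, 4 and 8, beside 4.02%, 8.49% and 9.87% of all probes. The values below are given without this correction, and the corrected value follows for the genes the results turn on.

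**Figure D1:**
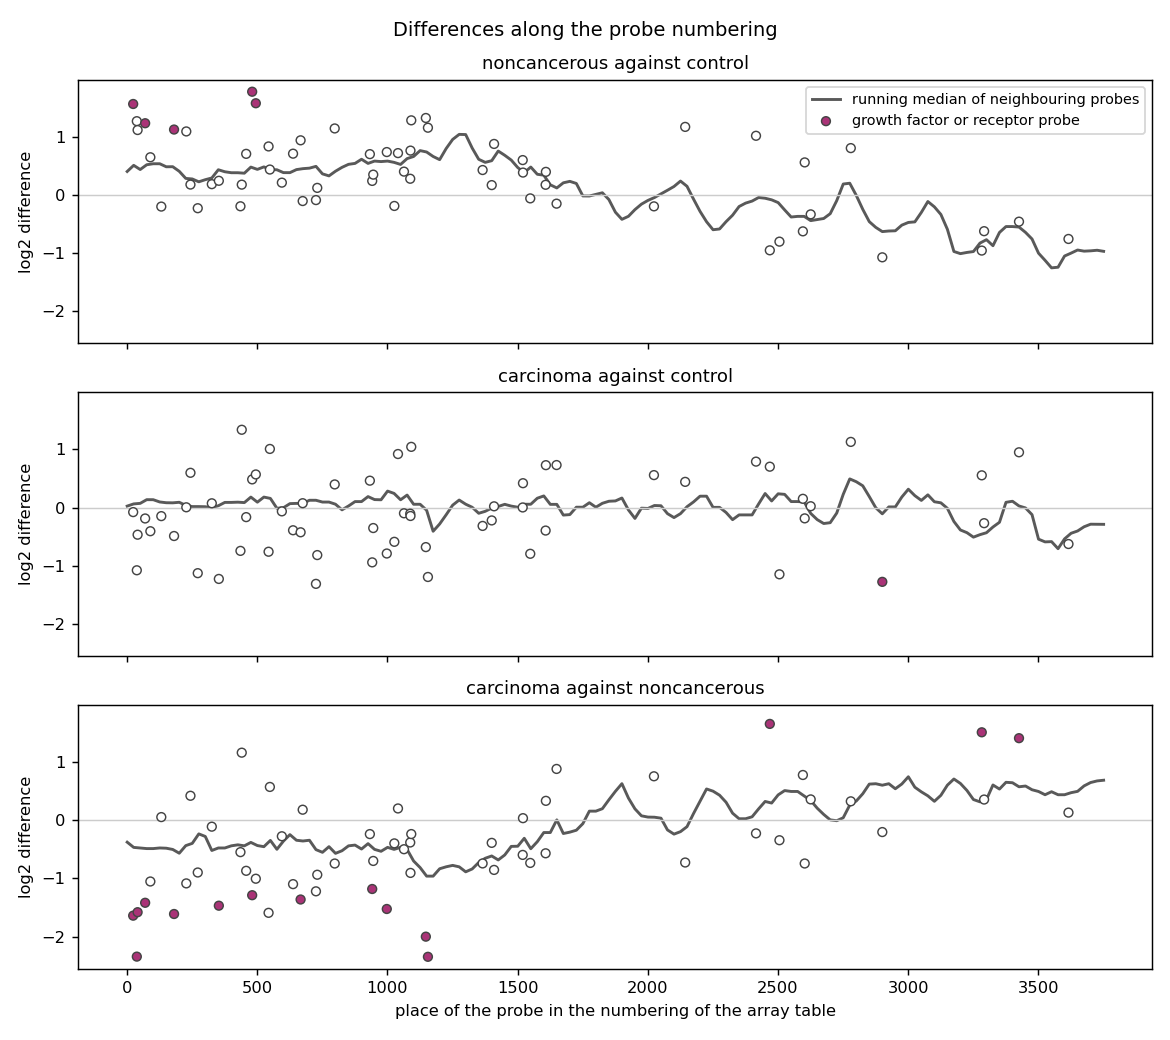
Log2 difference of each of the 61 growth factor and receptor probes (circles; filled where the unadjusted limma p is under 0.05) against its place in the numbering of the table, for the 3 comparisons. The line is the median difference of each probe's 50 neighbours on either side; most members lie in the first 1300 places, where the line is above 0 between noncancerous and control liver and below 0 between carcinoma and noncancerous liver.

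Between carcinoma and noncancerous liver, the groups did not overlap for 5 members, all lower in carcinoma: Fgf5, Fgf9, Pgf, Pdgfra and Areg. That is 8.2% of members, beside 2.71% of all probes (1.25% higher and 1.46% lower). Between noncancerous and control liver it was 2 members, Fgf9 and Pdgfra, both higher, 3.28% beside 1.65% of all probes (0.665% higher and 0.985% lower), and between carcinoma and control liver 0 members, beside 1.89% (1.06% higher and 0.825% lower). Without carcinoma 2 the count of 5 was 11, beside 4.92% of all probes, without noncancerous 1 or 3 it was 8, beside 7.8% and 4.68%, and with the running median removed it was 1 (Pdgfra), beside 1.33%. Without control 3 the count of 2 was 4, beside 2.98% of all probes, and with the running median removed it was 1, beside 0.452%. The count of 0 was 2 without control 2, beside 3.67%, and 1 without carcinoma 4, beside 3.78%.

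The promoters of these 5 genes are shown because in these members every carcinoma sample lay below every noncancerous sample. The sequences are from RefSeq on GRCr8, each from 250 bases before to 50 after the gene's start, 5′ to 3′ on the gene's strand. Capitals mark matches on either strand to 3 motifs. The GC box was searched as GGGCGG. For the TATA box the letters searched were TATAAA. The AP-1 motif, to which Fos and Jun bind, was searched as TGANTCA. No match overlaps another in these 5 windows.
Fgf9 (chr15:36327108-36327407, plus strand): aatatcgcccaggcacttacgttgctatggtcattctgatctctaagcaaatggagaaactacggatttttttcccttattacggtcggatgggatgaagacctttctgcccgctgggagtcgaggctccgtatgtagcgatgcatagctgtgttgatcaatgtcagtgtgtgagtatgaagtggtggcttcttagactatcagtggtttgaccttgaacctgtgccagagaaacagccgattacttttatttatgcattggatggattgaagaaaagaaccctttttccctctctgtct
Pdgfra (chr14:33408467-33408766, minus strand): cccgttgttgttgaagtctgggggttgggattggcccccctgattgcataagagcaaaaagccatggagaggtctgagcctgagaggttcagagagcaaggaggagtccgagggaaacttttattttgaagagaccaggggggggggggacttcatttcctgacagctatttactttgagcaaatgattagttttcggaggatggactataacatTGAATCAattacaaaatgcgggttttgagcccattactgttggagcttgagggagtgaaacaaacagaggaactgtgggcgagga
Fgf5 (chr14:11650194-11650493, minus strand): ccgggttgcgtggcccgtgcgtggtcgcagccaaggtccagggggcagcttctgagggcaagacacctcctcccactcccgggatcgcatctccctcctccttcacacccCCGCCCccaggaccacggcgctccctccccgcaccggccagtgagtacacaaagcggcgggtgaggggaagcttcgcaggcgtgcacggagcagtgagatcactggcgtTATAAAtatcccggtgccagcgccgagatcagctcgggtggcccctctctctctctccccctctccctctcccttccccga
Pgf (chr6:110557698-110557997, minus strand): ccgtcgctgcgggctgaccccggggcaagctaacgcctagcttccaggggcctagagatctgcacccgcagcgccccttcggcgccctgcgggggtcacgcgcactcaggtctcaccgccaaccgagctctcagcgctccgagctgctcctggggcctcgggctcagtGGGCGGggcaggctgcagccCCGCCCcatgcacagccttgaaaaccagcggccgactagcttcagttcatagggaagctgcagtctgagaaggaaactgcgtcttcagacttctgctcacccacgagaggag
Areg (chr14:17265592-17265891, minus strand): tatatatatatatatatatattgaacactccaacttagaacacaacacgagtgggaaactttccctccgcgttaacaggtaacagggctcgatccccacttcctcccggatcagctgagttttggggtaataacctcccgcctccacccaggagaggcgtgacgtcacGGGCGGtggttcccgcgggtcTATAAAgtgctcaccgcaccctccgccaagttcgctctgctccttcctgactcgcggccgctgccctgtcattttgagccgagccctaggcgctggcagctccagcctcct

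The 5 windows have no motif in common. Pgf held 2 GC boxes, Fgf5 and Areg 1 each, Fgf5 and Areg 1 TATA box each, and Pdgfra 1 AP-1 site, while the window of Fgf9 held none of the 3. Their GC content ran from 44.7% in Fgf9 to 67.3% in Fgf5. A GC box was found in 33.1% of 33469 promoters of the same length in RefSeq, a TATA box in 14.2% and an AP-1 site in 7.33%. Among the 54 promoters found for 50 members, 4 of which had a pair of promoters, the shares were 51.9%, 16.7% and 3.7%. A match describes the letters and is not a site of binding. Fgf5, Pdgfra and Areg lie on chromosome 14, where 8 of the 50 members with a promoter sequence lie, among them Kdr, Egfr and Tgfbr3.

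Among the fibroblast growth factors, Fgf9 and Fgf5 stood apart between the tissues. Fgf9 codes for a mitogen that signals between epithelium and mesenchyme. Its log2 ratios in noncancerous samples 1 to 5 were 0.33, 1.01, 1.66, 1.68 and 0.98. In control samples 1 to 5 they were -0.71, 0.02, -0.90, -0.88 and 0.32, and in carcinoma samples 1 to 5 they were -0.09, 0.33, -0.98, -0.33 and -1.47. Every noncancerous value lay above all control and all carcinoma values, though the lowest noncancerous value cleared the highest control value by only 0.01 and the highest carcinoma value by only 0.0027. The difference was 1.56 between noncancerous and control liver (95% interval 0.57 to 2.55, limma adjusted p = 0.307) and -1.64 between carcinoma and noncancerous liver (-2.63 to -0.65, adjusted p = 0.224). The corrected values were 1.16 and -1.34, and the groups then overlapped in both comparisons.

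Fgf5, a secreted mitogen best known for ending the growth phase of the hair cycle, had log2 ratios of 0.52, 2.01, 3.39, 1.01 and 1.17 in noncancerous samples 1 to 5. Its carcinoma values were -1.05, -0.33, -0.64, -0.47 and -1.12, all below every noncancerous value with a gap of 0.85. The carcinoma group was the tightest (mean -0.72 ± 0.35, SD, n = 5), beside 1.62 ± 1.13 in noncancerous and 0.35 ± 0.99 in control liver (SD, n = 5 each). The carcinoma against noncancerous difference was -2.34 (-3.67 to -1.02, adjusted p = 0.224), a 5.08-fold lower ratio, and -2.07 with the running median removed, when the groups overlapped. Control values ran from -0.52 to 1.96 and overlapped both other groups. The differences from control were 1.27 (-0.06 to 2.59) in noncancerous liver and -1.08 (-2.40 to 0.25) in carcinoma. Without noncancerous 3, the highest sample, the noncancerous difference was 0.84, and without control 5 the carcinoma difference was -0.67.

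None of the other 8 fibroblast growth factors reached an unadjusted p under 0.05 in any comparison. Over all 10 ligands the median difference was 0.39 between noncancerous and control liver (8 of 10 above 0) and -0.58 between carcinoma and noncancerous liver (7 of 10 below 0). The corrected medians were 0.07 (6 of 10 above 0) and -0.32 (7 of 10 below 0). Fgf10, a mesenchymal ligand of epithelial receptors, had the lowest difference of the family between carcinoma and control liver, -1.13 (-2.42 to 0.17; -0.62 without carcinoma 2), and Fgf17 the highest, 0.73. The receptors Fgfr1, Fgfr2 and Fgfr4 had 4 probes. None reached an unadjusted p under 0.05. Fgfr4, the main fibroblast growth factor receptor of hepatocytes and a mediator of bile acid feedback, differed by 1.14 between noncancerous and control liver (-0.41 to 2.69). Its value in control 2 was at the lower limit of the table, and without that sample the difference was 0.54. Fgfr2 differed by 1.28 (-0.13 to 2.69; 0.76 with the running median removed). The probes for Fgfr1 read far apart in some samples: in noncancerous 4 they read -5.12 and 1.09, and in carcinoma 1 they read -3.88 and -0.47. The first of them held 3 of its 15 values at the lower limit of the table, those in noncancerous 4 and carcinoma 1 among them. Away from the limit, in carcinoma 5, the probes for Fgfr1 had deposited ratios of 2.33 and 0.43, while in control 2 both had 0.52. Their group differences lay closer together. These were 0.12 and -0.06 between noncancerous and control liver, and -0.82 and -0.79 between carcinoma and control liver. Between carcinoma and noncancerous liver they were -0.94 and -0.73.

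The vascular endothelial growth factor family divided by ligand. Pgf (placental growth factor) is a ligand of the receptor Flt1 and is induced in injured and growing vessels. Its log2 ratios were 0.90, 1.80, 0.60, 0.29 and 1.56 in noncancerous samples 1 to 5 and 0.04, -0.66, -2.83, -1.34 and -1.78 in carcinoma samples 1 to 5. All carcinoma values lay below all noncancerous values, and control values (-0.33, -0.58, 1.43, -1.16 and 0.02) overlapped both. The carcinoma against noncancerous difference was -2.35 (-3.56 to -1.13, adjusted p = 0.224), a 5.09-fold lower ratio and, with Fgf5, the furthest below 0 of the 61 probes. It was -1.57 with the running median removed, and the groups then overlapped. The neighbouring probes of Pgf had a median difference of -0.97 in this comparison. Against control liver Pgf differed by 1.15 in noncancerous liver (0.62 with the running median removed) and by -1.19 (-2.41 to 0.02; -0.78 without control 3) in carcinoma.

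Vegfd, a lymphatic growth factor that acts through Flt4, had noncancerous values from -0.01 to 2.04 and carcinoma values from -1.20 to 0.60, which overlapped. It differed by -1.61 between carcinoma and noncancerous liver (-2.72 to -0.50, adjusted p = 0.234; -1.31 with the running median removed) and by 1.12 between noncancerous and control liver (0.72 with the running median removed). Vegfa, the main angiogenic ligand and a target of hypoxia, was the 1 ligand of the family on the other side of 0 in carcinoma. Its control values were 0.80, -0.58, 1.26, -3.38 and -2.50, a spread wider than any difference between groups. Means were -0.88 ± 2.02 in control, -0.71 ± 0.72 in noncancerous liver and 0.46 ± 0.85 in carcinoma (SD, n = 5 each). The difference of carcinoma was 1.34 from control (-0.29 to 2.97, adjusted p = 0.723; 0.73 without control 4) and 1.16 from noncancerous liver (-0.47 to 2.79, adjusted p = 0.512).

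The receptors of the platelet-derived and vascular families lay on 1 side of 0 in both comparisons with noncancerous liver. All 4 (Pdgfra, Pdgfrb, Kdr and Flt1) were above 0 between noncancerous and control liver, with a median of 1.01, and all 4 were below 0 between carcinoma and noncancerous liver, with a median of -1.33. Both statements held on the values as deposited, with each array scaled to its median, and with the running median removed (medians 0.63 and -0.96). Pdgfra, a receptor of mesenchymal cells including stellate cells, had log2 ratios of 1.11, 0.75, 1.55, 0.88 and 0.62 in noncancerous samples 1 to 5. Control samples read -0.03, -0.81, 0.38, -2.93 and -0.57, and carcinoma samples read -0.36, 0.26, -0.44, -0.24 and -0.75. The noncancerous values were above all others, by 0.25 over control and 0.37 over carcinoma.

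Pdgfra differed by 1.77 between noncancerous and control liver (0.67 to 2.88, adjusted p = 0.307), which is 3.42-fold and the furthest above 0 of the 61 probes. It differed by -1.29 between carcinoma and noncancerous liver (-2.40 to -0.18, adjusted p = 0.314). After removal of the running median the values were 1.37 and -0.95, and the groups still did not overlap in either comparison. The separation from control remained under 27 of 27 alternatives and that from carcinoma under 26, the exception being a running median over 25 probes on either side. These counts do not measure how firm the separation is. Changes of the model alone leave the values as they are, and leaving out samples can hardly make separate groups overlap. Fgf9, with a gap of 0.0027 between carcinoma and noncancerous liver, kept its separation under 24 of 27. Pdgfrb, the other platelet-derived growth factor receptor, which drives stellate cell division, differed by -1.53 between carcinoma and noncancerous liver (-2.74 to -0.31; -1.14 with the running median removed). In 4 of the 5 carcinomas it lay between -1.61 and -1.18, below all noncancerous values, and in carcinoma 5 it read 0.12. Kdr, the main signalling receptor for Vegfa on endothelium, differed by -1.36 in the same comparison (-2.57 to -0.15; -0.98 with the running median removed). Their ligands Pdgfa and Pdgfb differed by 0.18 and -0.09 between noncancerous and control liver, and by -0.11 and -1.22 (-2.77 to 0.32; -0.84 for Pdgfb with the running median removed) between carcinoma and noncancerous liver. Pdgfb in noncancerous 1 was at the lower limit of the table, while noncancerous 2 to 5 had deposited ratios of 1, 2.25, 2.03 and 1.53. Both differences of Pdgfb include that value, so the -0.09 does not show that Pdgfb was equal in those tissues.

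**Figure D2:**
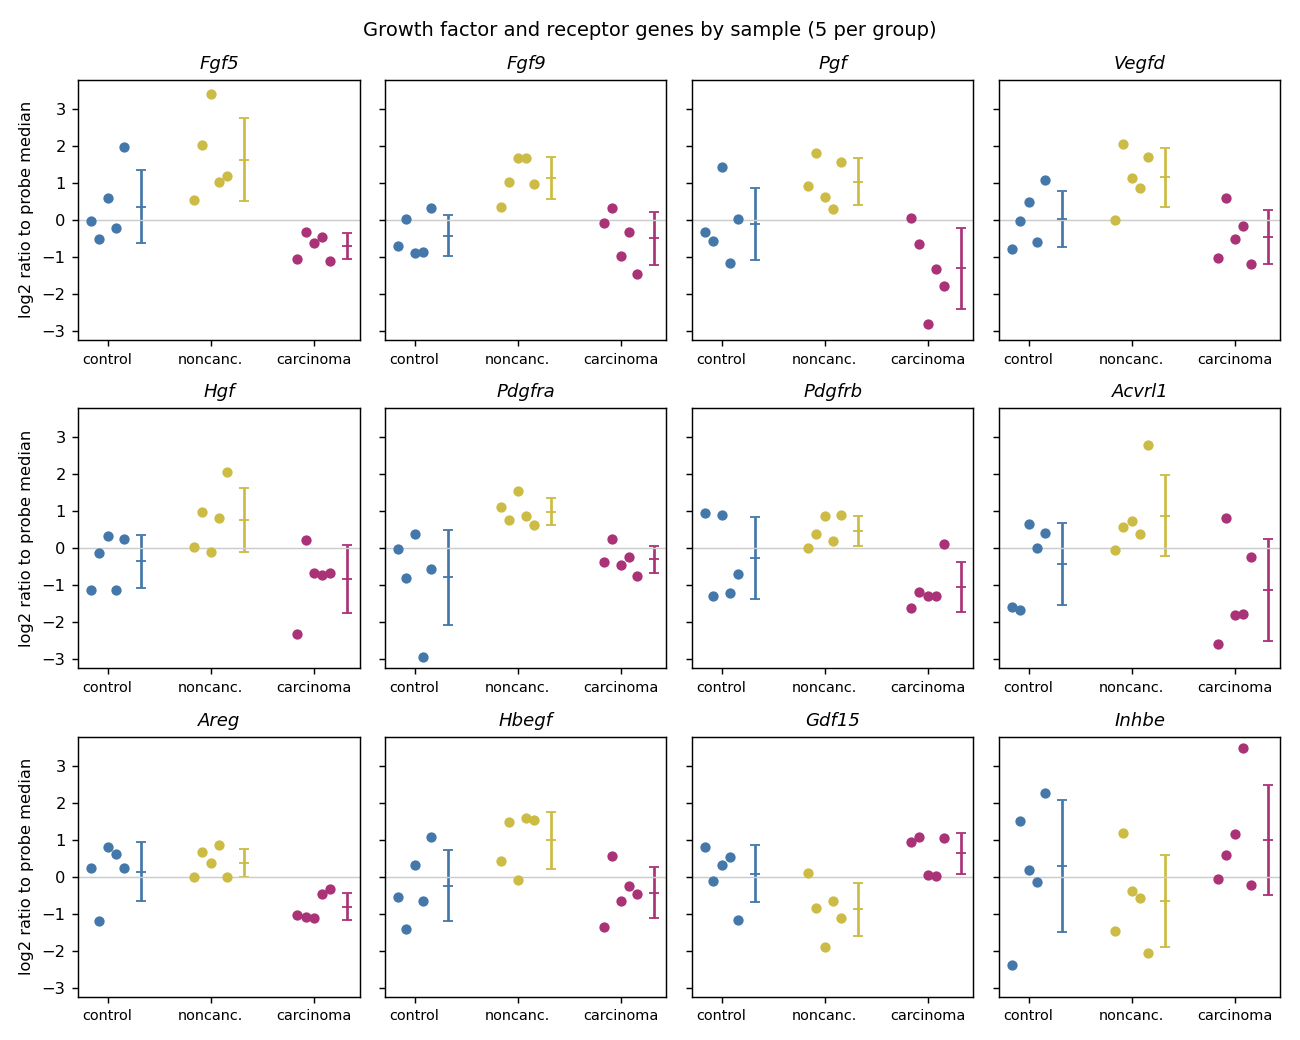
Normalized log2 ratio to the probe median of 12 growth factor and receptor genes in each sample, with the group mean and SD beside the points (5 samples per group). In Fgf5, Fgf9, Pgf, Pdgfra and Areg every carcinoma sample lies below every noncancerous sample; in the other 7 genes the groups overlap.

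Activin receptor-like kinase Acvrl1, an endothelial receptor for bone morphogenetic proteins, was the receptor furthest below 0 in carcinoma. Its carcinoma values were -2.60, 0.81, -1.80, -1.78 and -0.23, and its noncancerous values ran from -0.04 to 2.78, so the groups overlapped. The difference was -2.00 (-3.45 to -0.55, adjusted p = 0.25; -1.20 with the running median removed). Tgfbr1, the kinase through which transforming growth factor beta signals, differed by -1.47 between carcinoma and noncancerous liver (-2.86 to -0.07). That value leaned on carcinoma 2, which read -2.77 while the other 4 carcinomas lay between -0.34 and -0.01, and without it the difference was -0.95. Tgfbr3 (betaglycan, a co-receptor that presents ligand) had noncancerous values from 0.27 to 0.97 and control values of -1.05, -1.89, 0.38, -1.91 and -0.47. It differed by 1.57 between those tissues (0.42 to 2.73, adjusted p = 0.391; 1.17 with the running median removed).

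Over the 9 receptors of the transforming growth factor beta superfamily, 8 were above 0 between noncancerous and control liver (median 0.65) and 6 below 0 between carcinoma and noncancerous liver (median -1.01). After the correction for numbering it was 5 of 9 above 0 (median 0.19) and 6 below 0 (median -0.60). Tgfb1, the principal fibrogenic cytokine of liver, spread more widely in carcinoma than between groups: its carcinoma values were 1.61, 2.26, -2.43, -2.81 and 0.43. The group means were -0.65 ± 1.53 in control, 0.05 ± 0.80 in noncancerous liver and -0.19 ± 2.32 in carcinoma (SD, n = 5 each). Its differences were 0.70 (-1.12 to 2.52; 0.21 with the running median removed) between noncancerous and control liver, 0.46 (-1.36 to 2.28) between carcinoma and control, and -0.24 (-2.06 to 1.58) between carcinoma and noncancerous liver. The last was 0.41 without carcinoma 4 and -0.87 without carcinoma 2. Intervals of this width do not show that Tgfb1 was equal in the tissues. Tgfb2 and Tgfb3 differed by -0.34 and 0.43 between noncancerous and control liver, and by 0.03 and -0.02 after the correction.

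Gdf15, Gdf10 and Inhbe were the 3 members that lay higher in carcinoma than in noncancerous liver at an unadjusted p under 0.05. Gdf15, a circulating stress hormone of injured and tumour tissue, had carcinoma values of 0.95, 1.07, 0.04, 0.01 and 1.05 and noncancerous values of 0.10, -0.86, -1.90, -0.67 and -1.11. Of the noncancerous samples, 4 lay below all carcinomas and noncancerous 1 lay among them. The difference was 1.51 (0.46 to 2.56, adjusted p = 0.234; 1.19 with the running median removed). Gdf10, a bone morphogenetic protein relative, differed by 1.41 (0.11 to 2.70; 0.90 with the running median removed) and Inhbe, a hepatocyte-secreted inhibin beta chain, by 1.65 (0.0037 to 3.31; 1.43 with the running median removed and 1.04 without carcinoma 4). Bmp6, which signals iron load to hepatocytes and raises hepcidin, was the 1 member at an unadjusted p under 0.05 between carcinoma and control liver. It read -0.30 in control 1 and between 0.63 and 1.84 in the other 4 control samples, with carcinoma values of -1.68, -0.56, -0.69, 1.21 and -0.49. It differed by -1.28 (-2.41 to -0.14, adjusted p = 0.642; -1.17 with the running median removed) and by -1.07 between noncancerous and control liver (-0.51 with the running median removed).

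The ligands of the epidermal growth factor family (5 for Egfr, and Nrg1, a ligand of Erbb3) were below 0 between carcinoma and noncancerous liver in 6 of 6 genes (median -0.70). They were below 0 in 5 of 6 on the values as deposited, and in 5 of 6 with the running median removed (median -0.31), when Nrg1 went from -0.39 to 0.12. Areg (amphiregulin), a ligand induced in injured liver, had carcinoma values of -1.04, -1.09, -1.11, -0.48 and -0.34. Its noncancerous values ran from -0.01 to 0.85, all above the carcinomas, and all control values but that of control 2 (-1.21) were also above them. The difference was -1.18 between carcinoma and noncancerous liver (-2.17 to -0.19, adjusted p = 0.301; -0.79 with the running median removed, when the groups overlapped) and -0.94 between carcinoma and control liver (-1.93 to 0.05). Hbegf, a membrane-anchored ligand shed by proteases, differed by -1.42 between carcinoma and noncancerous liver (-2.53 to -0.31) and by 1.23 between noncancerous and control liver (0.12 to 2.34). The corrected values were -1.11 and 0.79. Egf and Tgfa differed by -0.85 (-2.05 to 0.34) and -0.55 (-2.04 to 0.95) between carcinoma and noncancerous liver, and by -0.31 and -0.21 after the correction. On the values as deposited Tgfa differed by 0.37. Its value in noncancerous 1 was at the lower limit of the table, and without that sample the normalized difference went from -0.55 to -1.14.

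None of the receptors for these ligands reached an unadjusted p under 0.05. Egfr, abundant in hepatocytes, had means of -0.47 ± 1.80 in control, 0.24 ± 1.32 in noncancerous liver and -0.63 ± 1.07 in carcinoma (SD, n = 5 each). The control mean rested on control 2, which read -3.36 from a deposited value at the lower limit of the table, and without it the noncancerous difference went from 0.70 to -0.01. The 3 receptors Egfr, Erbb2 and Erbb3 had a median of -0.28 between carcinoma and noncancerous liver, which was 0.12 on the values as deposited. Hgf, made by stellate and endothelial cells, and its receptor Met, on hepatocytes, lay on the same side of 0 in each comparison. Hgf had noncancerous values of 0.03, 0.97, -0.09, 0.81 and 2.05 and carcinoma values of -2.31, 0.23, -0.66, -0.72 and -0.66. It differed by -1.58 between carcinoma and noncancerous liver (-2.75 to -0.41, adjusted p = 0.26; -1.32 with the running median removed) and by 1.11 between noncancerous and control liver (-0.05 to 2.28; 0.72 with the running median removed). Met differed by -1.10 (-2.40 to 0.20) and 0.71 (-0.59 to 2.01) in the same comparisons, and by -0.76 and 0.33 after the correction.

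**Figure D3:**
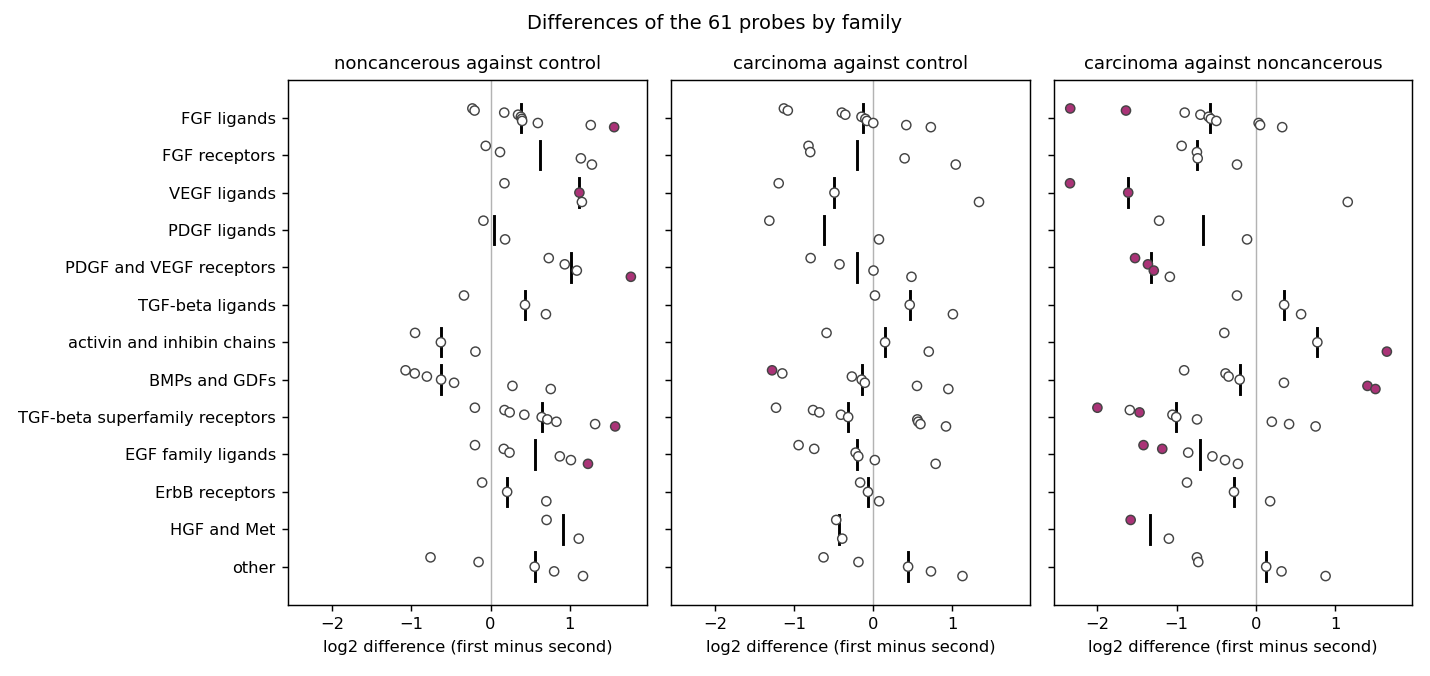
Log2 differences of the 61 probes by family in the 3 comparisons; each circle is 1 probe, filled where the unadjusted limma p is under 0.05, and the bar is the family median. All 4 receptors of the platelet-derived and vascular families lie above 0 between noncancerous and control liver (median 1.01) and below 0 between carcinoma and noncancerous liver (median -1.33). Between carcinoma and control liver the family medians run from -0.62 (PDGF ligands) to 0.46 (TGF-beta ligands).

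Receptors and ligands were also set side by side. Between noncancerous and control liver the 21 receptor probes had a median of 0.71 (18 above 0) and the 35 ligands a median of 0.24 (22 above 0). Between carcinoma and noncancerous liver the medians were -0.94 (17 receptors below 0) and -0.39 (24 ligands below 0). The corrected medians were 0.27 and -0.02, then -0.54 and -0.21. Between carcinoma and control liver the receptors had a median of -0.16 and the ligands one of -0.15, and the receptor median was 0.08 on the values as deposited. These are descriptions of lists and carry no test.

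Genes that carry or limit these signals inside and outside the cell were taken from a list of their own. The list of 84 symbols of adaptors, Ras and Smad proteins, antagonists, proteoglycans, proteases and early targets had 50 genes on 52 probes. None was called at limma's adjusted p of 0.05. Between noncancerous and control liver 31 were above 0 (median 0.18) and 2 had an unadjusted p under 0.05, Araf (1.86) and Hras (1.21), a kinase and a switch of the Ras pathway, both higher, beside 4.02% of all probes. Between carcinoma and control liver 4 were higher and 0 lower at that level, beside 3.65% and 3.75% of all probes, among them Plau (urokinase, 2.65) and Smad3 (a transducer of transforming growth factor beta, 1.34). Between carcinoma and noncancerous liver 2 were higher and 4 lower, beside 6.95% and 6.28% of all probes, among them Araf at -2.16 and Akt1, a survival kinase, at -2.06. Values for this list were not corrected for the numbering, and only some of its genes at that level are named.

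Markers of the cells that carry the receptors were given beside them. Pdgfra and Pdgfrb are made by stellate cells, and all 8 measured stellate cell and myofibroblast markers were above 0 between carcinoma and noncancerous liver (median 0.88), where both receptors were below 0. With the running median removed the receptors differed by -0.95 and -1.14. Values of markers, here and for the cell types below, were not corrected for the numbering. The mean of the stellate cell and myofibroblast markers per sample ran from -0.57 to -0.40 in noncancerous liver, -0.16 to 0.20 in control liver and 0.15 to 1.26 in carcinoma. Collagen genes stood furthest, with Col3a1 at 1.92 (0.83 to 3.02, adjusted p = 0.224). Endothelial markers were few, Vwf and Nos3 on 3 probes, with a median of 0.07 between carcinoma and noncancerous liver and of -0.93 between noncancerous and control liver, while Kdr, Flt1 and Acvrl1 differed by 0.94, 1.09 and 1.32 in the latter, and by 0.50, 0.77 and 0.72 with the running median removed. Without control 3 the difference of Kdr was 0.50, and without noncancerous 5 that of Acvrl1 was 0.86. The per-sample mean of the endothelial markers ran from -0.60 to 1.13 in control, -0.78 to 0.32 in noncancerous liver and -0.61 to 0.27 in carcinoma. The part of these cells in the receptors' differences was not tested. In whole tissue, fewer cells of a type and less RNA per cell cannot be told apart.

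Other cell types were represented by few probes. The 8 hepatocyte markers had a median of 0.36 between noncancerous and control liver, with 4 of 8 above 0. Their median was 0.82 between carcinoma and noncancerous liver (6 of 8 above 0) and 0.67 between carcinoma and control liver (8 of 8 above 0). Their mean per sample ran from -1.63 to 0.27 in control, -1.90 to 1.72 in noncancerous liver and -0.19 to 1.41 in carcinoma. The medians of the mast cell markers (Kit, Fcer1a and Cpa3) lay on the same sides of 0 as the members' medians. These markers had a median of 1.15 between noncancerous and control liver (2 of 3 above 0) and -1.67 between carcinoma and noncancerous liver (3 of 3 below 0). Their mean per sample ran from -0.66 to 0.94 in control, -0.43 to 1.57 in noncancerous liver and -1.27 to 0.0031 in carcinoma, and their part in the members' differences was not tested. In the same comparisons macrophage markers (2 probes) had medians of 0.25 and 0.94, T and NK cell markers (6) 0.12 and -0.38, and cholangiocyte and progenitor markers (4) -0.45 and -0.30. The T and NK cell medians were thus also on the members' sides of 0, with 3 of 6 markers above 0 in each comparison. Single probes for B cells and red cells differed by -0.04 and 0.18 between noncancerous and control liver and by 0.36 and 0.23 between carcinoma and noncancerous liver. The single platelet probe, Pf4, differed by -1.48 (-2.86 to -0.10) between noncancerous and control liver, -1.82 (-3.20 to -0.44) between carcinoma and control liver and -0.33 between carcinoma and noncancerous liver.

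Once the running median along the numbering was removed, 7 of the 15 members at an unadjusted p under 0.05 between carcinoma and noncancerous liver remained there: Fgf5, Fgf9, Hgf, Vegfd, Pgf, Pdgfrb and Gdf15. Vegfa joined them, at 1.56 and higher in carcinoma. All 15 kept their side of 0. Between noncancerous and control liver 3 of 5 remained (Fgf9, Pdgfra and Tgfbr3), joined by Ereg and Bmp2k. Both of the latter had a value at the lower limit of the table in control 1, and Bmp2k is neither a ligand nor a receptor. Between carcinoma and control liver Bmp6 remained, joined by Areg (-1.02), Gdf9 (-1.34) and Gdf15 (1.02). The shares of all probes beside these counts are given above. The smallest adjusted p of a member after this correction was 0.446 between carcinoma and noncancerous liver, 0.57 between carcinoma and control and 0.996 between noncancerous and control liver.

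**Figure D4:**
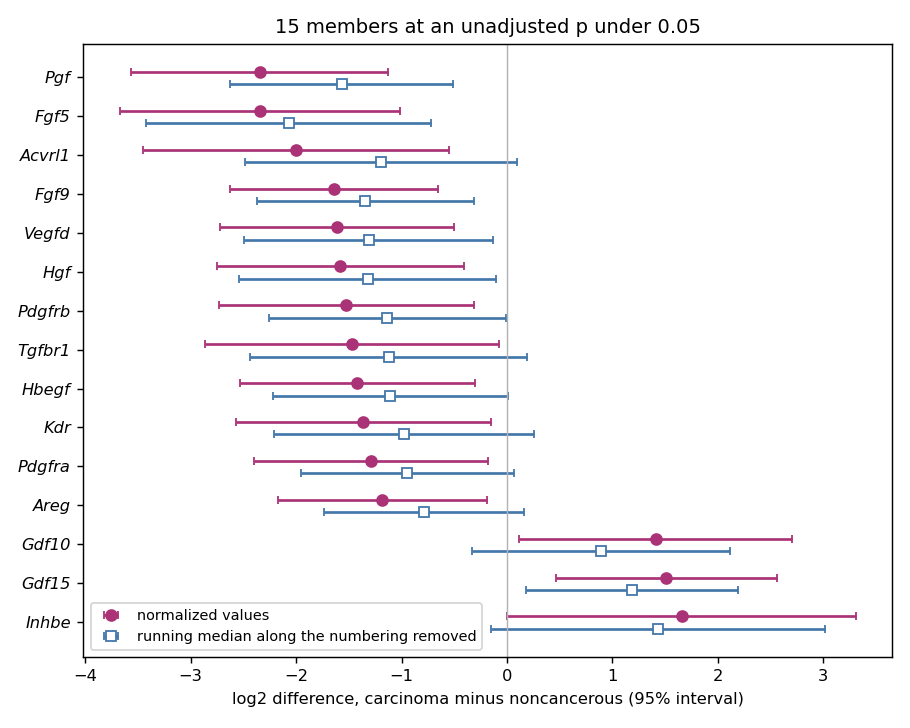
Log2 differences between carcinoma and noncancerous liver with 95% intervals for the 15 members at an unadjusted limma p under 0.05, before (filled circles) and after (open squares) a running median over 50 neighbours on either side was removed from each array. All 15 keep their side of 0, from -2.35 for Pgf to 1.65 for Inhbe before the correction, and the intervals of 7 genes still exclude 0 after it.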

How the data were processed

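The authors deposited a linear ratio for each of 3757 probes in 15 samples. Every probe had a median of 1 over the 15 arrays (within 1e-06) and no value lay under 0.01, so levels of different genes cannot be compared. For the array's dyes, scanner and software, the sources used here name nothing, and 0 columns were left aside. Control 1 held 229 deposited values at the lower limit and noncancerous 1 held 209, the other samples 0 to 76, and 11 member probes had at least 1. Array medians ran from 0.919 to 1.02.

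The highest trimmed array mean was 1.49 times the lowest, so the arrays were brought to a common distribution by quantile normalization and put on the log2 scale with no pseudocount and no filter. All 15 samples entered 1 limma 3.58.1 model (lmFit, eBayes with trend; R 4.3.3) with group as the only term and 12 residual degrees of freedom. Tests were two-sided, with Benjamini-Hochberg adjustment over the 3757 probes of each comparison. Intervals are 95% intervals from the moderated standard error, with a median half-width of 1.27 over all probes. Precision is limited by how many arrays there are.

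Symbols came from the platform annotation, where 4 probes had several and 313 none. All 60 member genes matched RefSeq (GRCr8) by gene identifier. The members and lists were chosen with earlier results of these data known. Members were named where groups did not overlap or the unadjusted p was under 0.05 in any comparison, with 10 always named (Fgf5, Pgf, Tgfb1, Hgf, Met, Egfr, Egf, Tgfa, Vegfa and Kdr). Others named are the extremes of a family, partners of a named member, or members that reached that p only with the running median removed. They were chosen after their values were seen. Alternatives were other scalings, a pseudocount or floor of 0.1, a filter on values at the lower limit, no trend, only the groups compared, a replicate block, a running median over 50 neighbouring probes on either side and leaving out samples. Windows of 25 and 100 on either side, the counts without overlap under each alternative, and leaving out samples for members outside the naming rule were added after seeing the data. Figures were drawn with matplotlib 3.10.9.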

Additional observations from a re-analysis of the deposited data

Results flagged for a closer look

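In 5 of the 69 groups of 5 samples tested for the 23 named members, 1 sample lay far from the others by Dixon's criterion, which chance gives for about 1 group in 20. Acvrl1 in noncancerous 5 had a log2 ratio of 2.78, where the next sample read 0.72. Areg in control 2 read -1.21 beside a next value of 0.23. Gdf10 in control 3 read -2.06 (next -0.17). Pdgfrb in carcinoma 5 read 0.12, while the next carcinoma read -1.18. Tgfbr1 in carcinoma 2 read -2.77, with the next carcinoma at -0.34.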

How the results depend on the processing

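No member passed an adjusted p of 0.05 under any alternative run. At an unadjusted p under 0.05, the count between carcinoma and noncancerous liver (15) was 8 with the running median over 50 neighbours on either side removed, 6 with 100 on either side and 8 with 25. Between carcinoma and control liver (1) it was 2 on the values as deposited, 2 with each array divided by its median, 2 without control 1 and noncancerous 1 together, and 4, 3 and 4 with the running median over 50, 100 and 25 neighbours removed. Leaving out 1 sample gave counts of 4 to 10 between noncancerous and control liver (5 with all samples), 0 to 4 between carcinoma and control liver, and 11 to 16 between carcinoma and noncancerous liver. With all samples the shares of all probes at that p were 9.64%, 7.4% and 13.2% in these comparisons. Those shares also moved with the setting, as given above for some of them. The counts in this paragraph alone are therefore not a result about the members. The causes were not tested, beyond what removing the running median shows of the numbering. With the values as deposited the median of all probes moved to 0.11 between noncancerous and control liver and to 0.13 between carcinoma and control. With the replicate number as a block the counts were 6, 1 and 16, which changed no adjusted call. The same-numbered samples were not shown to be paired: their correlations ran from -0.34 to 0.39, and 1 of 5 samples correlated best with its own number in each comparison. The depth of these arrays, as signal over background, cannot be read from the ratios.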
